A study of Mus musculus with 71 samples.

Results

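The protocadherins are the largest subfamily of the cadherins, the calcium-dependent adhesion proteins that span the cell membrane. Every row of the 6 expression tables whose gene symbol starts with Pcdh was taken, which gave 38 rows of the 37681 gene rows in the tables and 37 distinct symbols. The rows comprise 25 clustered genes and 13 non-clustered rows. Among the clustered rows 2 belong to the alpha cluster, 22 to the beta cluster and 1 to the gamma cluster.

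In the alpha and gamma clusters, many variable first exons, each with its own promoter, are spliced to a shared set of constant exons. The beta genes lack constant exons and are nearly all made of a single exon. Individual neurons choose a small number of these promoters, helped by the insulator protein CTCF and cohesin, and the resulting proteins bind only to matching copies on another membrane, which is known for dendritic self-avoidance and neuronal survival. The non-clustered protocadherins are separate genes with their own promoters. They are divided into delta1 (Pcdh1, Pcdh7, Pcdh9 and Pcdh11x) and delta2 (Pcdh8, Pcdh10, Pcdh17, Pcdh18 and Pcdh19) genes, with Pcdh12, Pcdh15 and Pcdh20 outside both, and several of them recruit the WAVE actin-regulating complex in axons and at synapses.

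RNA was sequenced from micro-punches of the nucleus accumbens (NAc), ventral tegmental area (VTA) and prefrontal cortex (PFC) of wild type C57BL/6 mice. The adult mice, 8 weeks old and of both sexes, were first trained for food pellets and then self-administered either cocaine, at 0.7 mg/kg per infusion, or saline intravenously in 21 daily sessions. Tissue was taken 1 or 28 days after the last session, which gave 12 groups and 71 libraries, with 6 libraries in each group except the VTA saline group at 28 days, which had 5. The sources used here do not say whether each library is 1 mouse, so p-values measure the spread between libraries.

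Depth ranged from 20971967 to 49700932 reads per library, and the protocadherin rows together took between 0.124% and 0.221% of it. Marker genes went with the labelled region: all 8 medium spiny neuron markers were called higher in the NAc than in the PFC at 28 days, all 8 dopamine neuron markers higher in the VTA than in either other region, and all 8 cortical excitatory markers lower in the NAc than in the PFC. Several libraries lay far from their group on a marker sum. The sixth VTA libraries at 1 day had the highest summed choroid plexus and ependyma level, 181.6 RPKM with cocaine (others 9.43 to 23.8) and 65.7 with saline (others 7.65 to 11.6), the fifth VTA saline library at 28 days had a microglial sum of 328 RPKM (others 168 to 181), and the sixth PFC saline library at 28 days a fibroblast sum of 68.5 RPKM (others 21.2 to 31.2). A further library went against its labelled region. The fourth PFC saline library at 28 days had a summed medium spiny neuron marker level of 1338 RPKM, against 91.8 to 125 RPKM in the other 5, and the lowest summed cortical marker level of its group, 506 RPKM. It is called below the PFC library that stood apart, and some results that use its group are also given without it. The others are given with all libraries only. The NAc libraries also varied widely in summed cortical marker level. At 1 day it ran from 35.3 to 243 RPKM with saline and from 28.7 to 323 with cocaine. At 28 days it ran from 34.9 to 201 RPKM with saline, and the highest cocaine library had 229. The PFC saline libraries had 522 to 611 RPKM at 1 day and 506 to 812 at 28 days. The part of this NAc spread in the protocadherin values was not tested.

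The counting unit limits what can be read for the clusters. On mouse genome build mm9 the row named Pcdha1 (ENSMUSG00000007440, chr18:37089939-37347311) is a single gene model with 10 transcripts that spans the alpha cluster, and the row named Pcdhga11 (ENSMUSG00000023036, chr18:37833989-38001527) is a model with 10 transcripts that spans the gamma cluster. Their values are therefore sums over the alternative first exons and the constant exons, and no single isoform, including the C-type isoforms, can be read from them. The separate row Pcdha3 (ENSMUSG00000091969) lies wholly inside the Pcdha1 model and overlaps it by 2885 bases, so its reads are uncertain. The 22 beta genes lie between these models at chr18:37424652-37681073, a stretch of 256 kb, and 20 of them have 1 exon. Beta genes resemble each other in sequence, so reads shared between neighbours are a further uncertainty. A second Pcdh15 row, an annotated pseudogene (ENSMUSG00000046980) inside the Pcdh15 gene, had 0 reads in all 71 libraries.

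Protocadherin levels in the saline libraries were compared first, since they show where each gene is used. Levels are given as RPKM, reads per kilobase of transcript after scaling to library depth, which allows genes of different length to be compared. For the comparison of regions, the libraries of a time point were scaled together. They were tested as independent, although libraries of different regions may come from the same mice. A gene was called when its p-value, adjusted for all genes tested by the Benjamini-Hochberg method in edgeR's quasi-likelihood test, was under 0.05. Region and deposited table coincide, so a difference between regions cannot be told apart from one between the tables, and fewer cells of a type cannot be told apart from less RNA per cell in punched tissue.

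The gamma row was the most abundant member in each region. Its saline mean at 28 days was 169 ± 9.1 RPKM (SD, n = 6) in the NAc, 139 ± 7.6 (n = 6) in the PFC and 82.3 ± 3.1 (n = 5) in the VTA. The 5 VTA libraries lay between 77.6 and 85.7 RPKM and the 6 NAc libraries between 159 and 182, so the 2 regions did not overlap. At 1 day the order was the same, with 141 ± 11, 120 ± 6.1 and 76.1 ± 2.5 RPKM (n = 6 each). The NAc exceeded the VTA by 1.04 on the log2 scale at 28 days (SE 0.06, edgeR adjusted p = 1e-10) and by 0.87 at 1 day (SE 0.06, adjusted p = 3.6e-11). The smaller gap between NAc and PFC was called at both times, at 0.27 (SE 0.06, adjusted p = 0.00074) and 0.23 (SE 0.06, adjusted p = 0.0022), and was 0.32 without the PFC library that stood apart.

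The alpha row had another order, with its highest level in the PFC. Pcdha1 averaged 34.3 ± 2.4 RPKM (n = 6) in the PFC, 23.1 ± 1.0 (n = 6) in the NAc and 20.6 ± 2.5 (n = 5) in the VTA at 28 days. The PFC libraries, from 29.6 to 36.0 RPKM, lay above every NAc and VTA library. Against the PFC, the NAc had a log2 fold change of -0.58 (SE 0.07, edgeR adjusted p = 5.5e-06) and the VTA one of -0.75 (SE 0.08, adjusted p = 2e-07). NAc and VTA differed at 1 day (0.30, SE 0.08, adjusted p = 0.0042), while the same contrast at 28 days, 0.16 (SE 0.08), had an edgeR adjusted p of 0.071 and, with the spread estimated without the PFC library that stood apart, 0.19 and 0.028. Without that library, NAc and VTA against PFC gave -0.60 and -0.79. The overlapping row Pcdha3 was far lower, between 0.712 and 1.31 RPKM on average at 28 days, and its NAc level was called below that of both other regions at that time.

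Beta genes were mostly highest in the NAc. Summed over the 22 genes and scaled within each table, the saline libraries at 28 days held a mean of 47.3 RPKM in the NAc, 36.7 in the PFC and 36.6 in the VTA. Of the 22 genes, 12 were called higher and 2 lower in the NAc than in the VTA at 28 days, and 16 were higher and 2 lower at 1 day. Over all genes tested, 29.8% were called higher in the NAc than in the VTA at 28 days and 32.6% at 1 day. The shares called lower were 32.6% at 28 days and 33.3% at 1 day. Against the PFC, 11 beta genes were called higher in the NAc at 28 days and 15 at 1 day, and 0 were called lower at either time, where 20.0% and 20.5% of all genes were called higher and 20.7% and 20.4% lower. The median beta log2 fold change of NAc against PFC was 0.33 at 28 days and 0.52 at 1 day, beside 0.02 over all genes at both times. By DESeq2 the counts of all members called were close to these, as given in the closing section.

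Within the beta cluster, levels and regional differences varied between neighbours. Pcdhb9 had the highest mean level at 1 day in the NAc, 6.49 ± 0.57 RPKM (n = 6), and Pcdhb17 at 28 days, 5.64 ± 0.34 (n = 6). Pcdhb1, the first gene of the cluster, was the lowest. Its 6 NAc saline libraries lay between 0.267 and 0.401 RPKM at 28 days, its 5 VTA libraries between 0.0213 and 0.139, and its 6 PFC libraries between 0 and 0.0851. No PFC library reached the lowest NAc library. The log2 fold change of NAc against PFC was 3.27 (SE 0.44, edgeR adjusted p = 1.2e-05) at 28 days and 3.73 (SE 0.41, adjusted p = 3.4e-07) at 1 day, the largest of any member. It rests on few reads, 19 to 36 per NAc library and 0 to 8 per PFC library at 28 days, and without the PFC library that stood apart, which had the highest PFC level, the value was 3.78. With all libraries, Pcdhb1 was not called between VTA and PFC at 28 days (1.22, SE 0.52, edgeR adjusted p = 0.053). Without that library it was called higher in the VTA (1.71, SE 0.53, edgeR adjusted p = 0.011).

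Pcdhb6 and Pcdhb13 showed the next largest differences. Pcdhb6 averaged 2.36 ± 0.51 RPKM in the NAc (n = 6), 1.12 ± 0.25 in the VTA (n = 5) and 0.751 ± 0.25 in the PFC (n = 6) at 28 days. Its NAc libraries, all at or above 1.80 RPKM, did not overlap with either other region, and NAc against PFC gave 1.63 (SE 0.20, edgeR adjusted p = 5e-06) at 28 days and 1.69 (SE 0.15, adjusted p = 1e-08) at 1 day. The VTA also exceeded the PFC for Pcdhb6 at 28 days, by 0.55 (SE 0.21, adjusted p = 0.031), but this call was lost when any of 6 single libraries was left out, as detailed in the closing section, and the value was 0.75 without the library that stood apart. Without that library, NAc against PFC gave 1.86 for Pcdhb6. Pcdhb13 was low in the VTA. It averaged 0.775 ± 0.096 RPKM there (n = 5), against 1.90 ± 0.23 in the PFC (n = 6), while the 6 NAc libraries ran from 1.70 to 2.74 RPKM, and all VTA libraries lay under 0.88 RPKM. NAc against VTA gave 1.63 (SE 0.14, adjusted p = 1.3e-08) and VTA against PFC gave -1.31 (SE 0.14, adjusted p = 2.2e-07).

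The first genes after Pcdhb1 did not share the NAc preference. None of Pcdhb2, Pcdhb3, Pcdhb4 and Pcdhb5, which follow it in that order, was called between NAc and PFC at either time. This was not particular to that stretch, since Pcdhb12, Pcdhb15 and Pcdhb22 were not called in this contrast either. Without the PFC library that stood apart, Pcdhb15 was called higher in the NAc at 28 days (0.34, SE 0.13, edgeR adjusted p = 0.041). Pcdhb3 was instead called lower in the NAc than in the VTA at both times, with log2 fold changes of -0.44 (SE 0.12, edgeR adjusted p = 0.0044) at 28 days and -0.31 (SE 0.12, adjusted p = 0.024) at 1 day. At the other end of the cluster, Pcdhb22 differed between NAc and VTA only at 28 days (-0.32, SE 0.12, adjusted p = 0.028), with 0.01 (SE 0.10) at 1 day, and whether these values differed was not tested. The stretch from Pcdhb2 to Pcdhb5 was picked after its values were seen. The pattern along the cluster was similar at the 2 times: across the 22 beta genes, the log2 fold changes of NAc against PFC at 1 day and at 28 days had a Pearson correlation of 0.977. That value is a description across genes that share libraries, and genes are not independent replicates.

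**Figure D1:**
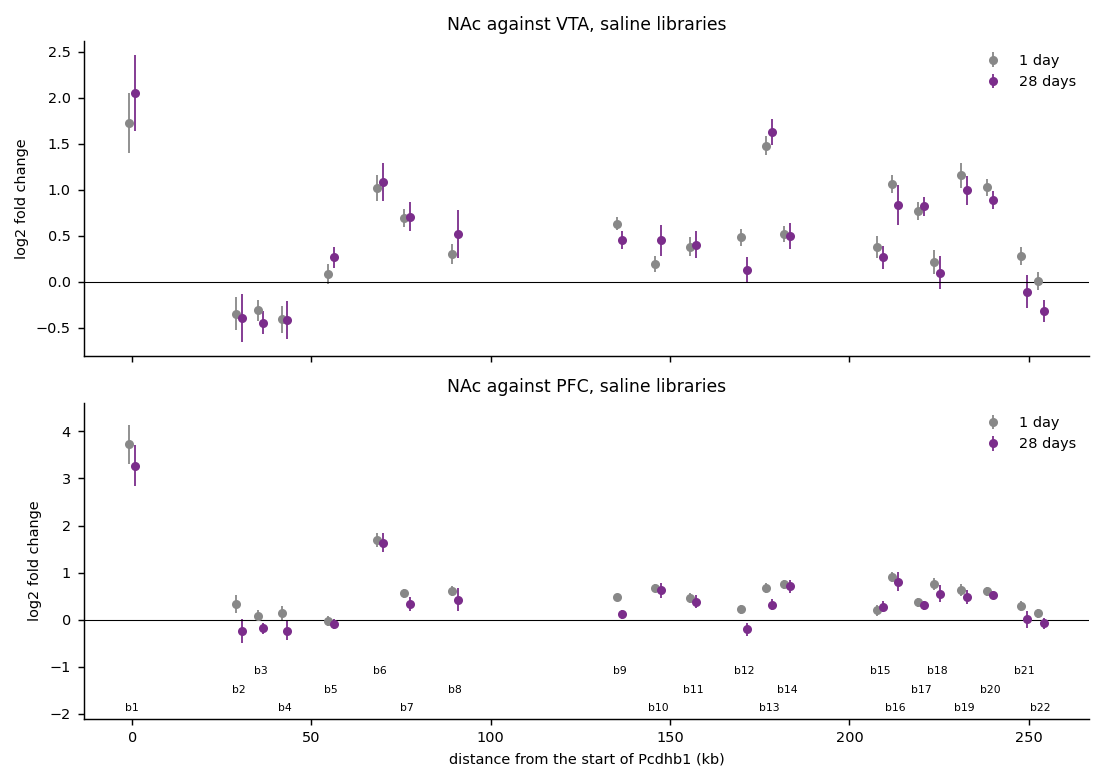
Log2 fold change between regions in saline libraries (y axis; points with bars for the standard error) for the 22 beta genes, placed by distance in kb from the start of Pcdhb1 (x axis; points shifted slightly sideways by time), with 1 day in grey and 28 days in purple. Pcdhb1 stands highest in the lower panel at 3.73 and 3.27, Pcdhb6 follows at 1.69 and 1.63, and Pcdhb2 to Pcdhb5 lie between -0.24 and 0.34.

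Among the non-clustered delta1 genes, Pcdh1 had the widest regional range. Its saline mean at 28 days was 57.1 ± 5.9 RPKM in the PFC (n = 6), 44.8 ± 2.2 in the NAc (n = 6) and 18.0 ± 2.7 in the VTA (n = 5). The highest VTA library, at 20.3 RPKM, was under the lowest NAc library, at 42.5. VTA against PFC gave -1.68 (SE 0.09, edgeR adjusted p = 6.5e-11) at 28 days and -1.39 (SE 0.10, adjusted p = 1.7e-10) at 1 day. NAc against PFC was called as well, at -0.37 (SE 0.08, adjusted p = 0.0019) and -0.29 (SE 0.09, adjusted p = 0.019).

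Pcdh9 and Pcdh7 were lower in the NAc than in the PFC, and Pcdh11x was lowest in the PFC. Pcdh9 averaged 14.9 ± 2.1 RPKM in the NAc (n = 6), 25.3 ± 2.4 in the PFC (n = 6) and 24.9 ± 4.3 in the VTA (n = 5) at 28 days, and the NAc was called lower than both at both times, while VTA and PFC differed by -0.03 (SE 0.12, edgeR adjusted p = 0.83). Pcdh7 averaged 12.8 ± 2.2 RPKM in the PFC, 7.14 ± 2.1 in the VTA and 6.76 ± 0.70 in the NAc. Both differences from the PFC were called at both times, with NAc against PFC at -0.94 (SE 0.17, adjusted p = 0.00019) at 28 days and -0.66 (SE 0.13, adjusted p = 0.00051) at 1 day. For the X-linked Pcdh11x the PFC mean was 1.81 ± 0.29 RPKM, against 2.75 ± 0.44 in the VTA and 2.53 ± 0.25 in the NAc, and VTA against PFC gave 0.59 (SE 0.12, adjusted p = 0.00041) at 28 days and 0.74 (SE 0.14, adjusted p = 0.00011) at 1 day.

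The delta2 genes had less in common across regions. Pcdh18 was highest in the VTA, with 2.94 ± 0.87 RPKM (n = 5) at 28 days against 1.52 ± 0.33 in the NAc and 1.36 ± 0.12 in the PFC (n = 6 each). Every VTA library, from 2.21 RPKM up, lay above every NAc library, the highest of which had 2.08. VTA against PFC gave 1.10 (SE 0.17, edgeR adjusted p = 2.4e-05) at 28 days and 1.43 (SE 0.11, adjusted p = 5.5e-10) at 1 day. Pcdh10 had the opposite direction, with 19.7 ± 4.5 RPKM in the VTA against 28.7 ± 1.4 in the NAc and 29.7 ± 2.2 in the PFC, and the VTA was called lower than both at both times. Pcdh19, an X-linked gene in which loss causes epilepsy limited mainly to females, was lower in the NAc (2.72 ± 0.69 RPKM) than in the PFC (4.85 ± 0.88) and VTA (4.70 ± 0.98).

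Pcdh17 was the flattest. It averaged between 11.0 and 12.4 RPKM over the regions at 28 days and between 13.1 and 13.2 at 1 day, and no pair of regions was called at either time, with edgeR adjusted p from 0.26 to 0.99. Pcdh8, also known as arcadlin and induced by neuronal activity, was called between NAc and PFC at 28 days only (-0.63, SE 0.21, adjusted p = 0.023), beside 0.14 (SE 0.13, adjusted p = 0.41) at 1 day. Its NAc libraries at 28 days spread from 4.11 to 8.28 RPKM and overlapped with the PFC libraries, which began at 6.39.

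Of the remaining genes, Pcdh15, best known as a component of the tip link of inner-ear hair cells, was lower in the NAc (1.57 ± 0.38 RPKM, n = 6) than in the VTA (2.81 ± 0.71, n = 5) at 28 days, a log2 fold change of -0.84 (SE 0.18, edgeR adjusted p = 0.0006). With all libraries, Pcdh20 was called only between NAc and VTA at 28 days, at -0.79 (SE 0.20, adjusted p = 0.0021), beside 0.23 (SE 0.17, adjusted p = 0.23) at 1 day. Without the PFC library that stood apart, Pcdh20 was also called lower in the NAc than in the PFC at 28 days (-0.50, SE 0.19, edgeR adjusted p = 0.041). Pcdh12, which is known from endothelial cells, was near the detection limit everywhere, with means from 0.0820 to 0.0966 RPKM at 28 days, and was called in no pair of regions.

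Over all members tested, 23 of 37 were called between NAc and VTA at 28 days, 21 between NAc and PFC and 16 between VTA and PFC. The shares of all tested genes called in the same contrasts were 62.5%, 40.7% and 57.8%. At 1 day the counts were 27, 23 and 21 of 37, beside 66.0%, 40.9% and 64.6% of all genes. Without the PFC library that stood apart, the counts at 28 days were 25, 23 and 16. At both times with the same sign, 21 members were called between NAc and VTA, 19 between NAc and PFC and 13 between VTA and PFC, beside 54.3%, 32.1% and 50.2% of all genes. Differences of 1 or more on the log2 scale were called for 5, 2 and 3 members at 28 days, beside 3906, 1843 and 3486 of the 17181 genes tested, and for 8, 2 and 3 members at 1 day, beside 3180, 1609 and 3077 of 16430. In the cocaine libraries 27 members, in place of 16, were called between VTA and PFC at 28 days, beside 10999 of all genes, in place of 9939.

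**Figure D2:**
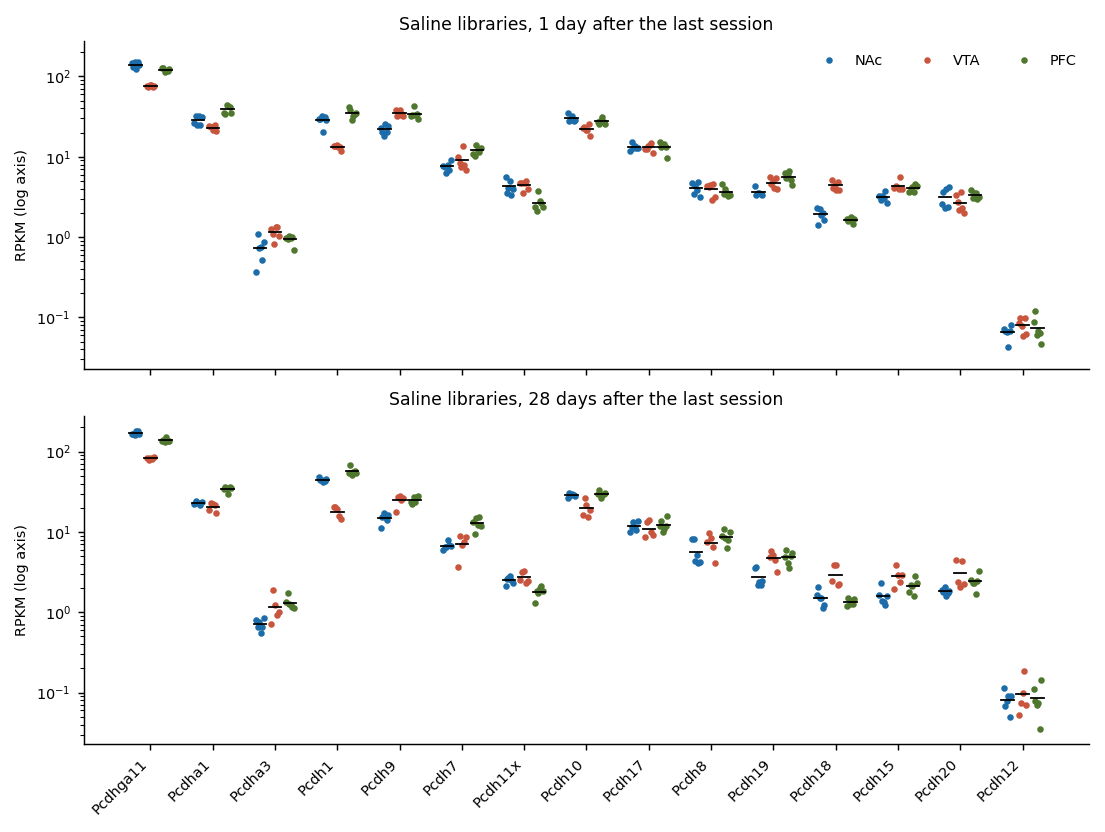
RPKM (y axis, log scale) of the gamma row, the 2 alpha rows and the 12 non-clustered genes with reads (x axis) in each saline library, at 1 day (upper panel) and 28 days (lower panel), with NAc in blue, VTA in red, PFC in green and a black line at each mean. Pcdhga11 lies lowest in the VTA, Pcdha1 and Pcdh1 highest in the PFC and Pcdh18 highest in the VTA in both panels, while the regions overlap for Pcdh17.

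Genes of the cluster machinery were compared over the same libraries. A list of 25 genes for promoter choice and chromatin at the clusters (CTCF, cohesin and its loader, and DNA and histone methylation enzymes) had 17 members called higher and 2 lower in the NAc than in the VTA at 28 days, with a median log2 fold change of 0.36, beside -0.03 over all genes. Against the PFC, 8 were higher and 2 lower in the NAc, with a median of 0.17. Of all genes, 29.8% were higher and 32.6% lower against the VTA, and 20.0% and 20.7% against the PFC. Ctcf itself was higher in the NAc than in the VTA by 0.39 (SE 0.07, edgeR adjusted p = 8.9e-05), and Dnmt3a, a DNA methyltransferase, by 0.69 (SE 0.09, adjusted p = 1.7e-06). A list of 30 protocadherin partners and processing enzymes had 16 members higher and 4 lower in the NAc than in the VTA (median 0.27), where 29.8% of all genes were higher and 32.6% lower. Between VTA and PFC 5 were higher and 19 lower in the VTA (median -0.36), where 29.8% of all genes were higher and 28.1% lower. Wasf1, a WAVE complex subunit, differed by 2.43 (SE 0.09) between NAc and VTA.

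The second question was whether cocaine self-administration changed protocadherin levels, which was tested within each region and time. The answer by the adjusted threshold was 0 members in each of the 6 comparisons, out of 36, 37, 35, 37, 35 and 36 tested in NAc at 1 and 28 days, VTA at 1 and 28 days and PFC at 1 and 28 days. Few genes of any kind passed: 0.0126%, 0.0%, 0.0665%, 0.0%, 0.00693% and 0.0% of all genes tested, in the same order. In the VTA at 1 day these were 0.0598% higher and 0.00665% lower. Counts were tested with edgeR and the 2 tables deposited as RPKM (VTA and PFC at 1 day) with limma on log2(RPKM + 0.1), on which scale their fold changes are given and which understates the change of low genes. DESeq2 on the count tables and edgeR on reads recovered from the RPKM tables also called 0 members. In none of the 6 comparisons did all cocaine libraries of a tested member lie above or below all saline libraries, while between 0.159% and 1.67% of all genes did so.

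At an unadjusted p under 0.05, 1 member was higher and 1 lower with cocaine in the NAc at 1 day, where 2.76% and 1.25% of all genes (4.01% in all) were higher and lower. At 28 days in the NAc, 3 members were higher and 0 lower (all genes 3.34% and 3.42%). That count was 1 without the first cocaine library, 6 without the second saline library and 5 without any of cocaine libraries 2 and 3 and saline libraries 1, 3 and 4. In the VTA, 2 were higher and 3 lower at 1 day (all genes 11.2% and 4.57%), and 7 were higher and 0 lower at 28 days (all genes 5.08% and 6.39%). In the PFC, 0 were higher and 1 lower at 1 day (all genes 1.67% and 2.11%), and 1 was higher and 2 lower at 28 days (all genes 2.69% and 2.97%, 5.66% in all). The values below describe those members, none of which passed the adjusted threshold. Exact permutation p-values given below use the same libraries and are not adjusted. They are given for members picked by their p in these libraries, so they are no separate support.

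**Figure D3:**
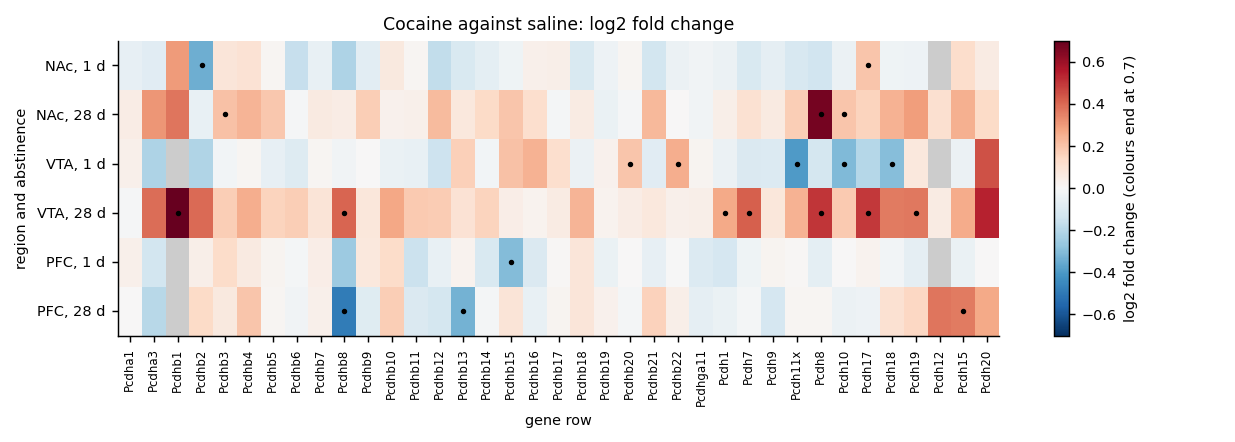
Log2 fold change of cocaine against saline (colour, red higher and blue lower with cocaine, colours ending at 0.7 in either direction) for 37 member rows (x axis) in the 6 comparisons (y axis), with a dot where the unadjusted p was under 0.05 and grey where a gene was not tested. In the VTA at 28 days 36 of 37 rows are above 0 and 7 carry a dot, and no row passed the adjusted threshold in any comparison.

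The delta2 genes gave 8 of these 21 differences, all 8 in the NAc and VTA. Of the 5 tested, 1 was higher in the NAc at 1 day and 2 at 28 days (all genes 2.76% and 3.34%). In the VTA 2 were lower at 1 day and 3 were higher at 28 days (all genes 4.57% and 5.08%). The upstream sequences of these 5 genes are shown so that the genes can be compared at the place where their own promoters lie, in contrast to the shared models of the clusters. Each line gives the 250 bases before the RefSeq start (build GRCm38.p6, gene strand, 5′ to 3′), at chr14:79771313-79771562 (minus strand) for Pcdh8, chr3:45378148-45378397 (plus) for Pcdh10, chr14:84443313-84443562 (plus) for Pcdh17, chr3:49757317-49757566 (minus) for Pcdh18 and chrX:133688994-133689243 (minus) for Pcdh19. Capitals mark the TATA box TATAAA, the CCAAT box CCAAT and the GC box GGGCGG on either strand; the cAMP response element TGACGTCA and the E-box CACGTG were also searched and have no match in these 5 windows.
Pcdh8: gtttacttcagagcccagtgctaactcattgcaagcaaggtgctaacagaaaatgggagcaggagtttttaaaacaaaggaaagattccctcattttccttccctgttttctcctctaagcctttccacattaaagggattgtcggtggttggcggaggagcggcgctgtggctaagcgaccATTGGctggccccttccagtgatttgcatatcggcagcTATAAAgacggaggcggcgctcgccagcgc
Pcdh10: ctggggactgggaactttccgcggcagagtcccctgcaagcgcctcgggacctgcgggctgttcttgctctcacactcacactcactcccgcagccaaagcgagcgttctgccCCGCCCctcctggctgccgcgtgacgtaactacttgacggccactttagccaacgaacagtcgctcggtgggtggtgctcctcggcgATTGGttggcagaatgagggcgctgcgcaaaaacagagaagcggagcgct
Pcdh17: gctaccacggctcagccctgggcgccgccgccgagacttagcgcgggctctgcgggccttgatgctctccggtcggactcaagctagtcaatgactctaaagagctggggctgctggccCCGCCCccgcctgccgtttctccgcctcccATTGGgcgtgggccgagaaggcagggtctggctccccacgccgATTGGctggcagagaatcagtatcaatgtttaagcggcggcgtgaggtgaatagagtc
Pcdh18: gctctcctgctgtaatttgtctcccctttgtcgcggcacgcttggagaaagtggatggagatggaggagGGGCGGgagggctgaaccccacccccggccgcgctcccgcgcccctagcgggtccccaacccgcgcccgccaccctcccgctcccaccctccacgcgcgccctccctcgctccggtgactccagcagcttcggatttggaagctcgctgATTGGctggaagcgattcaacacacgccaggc
Pcdh19: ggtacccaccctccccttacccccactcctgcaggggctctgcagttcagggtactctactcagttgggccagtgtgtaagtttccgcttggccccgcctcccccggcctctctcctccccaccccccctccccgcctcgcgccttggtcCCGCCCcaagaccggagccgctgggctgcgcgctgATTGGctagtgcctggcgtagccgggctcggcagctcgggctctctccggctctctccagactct

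All 5 windows hold the CCAAT box, read as ATTGG on the gene strand, from 32 to 101 bases before the start, and Pcdh17 holds it at 2 places. Of 32851 RefSeq promoter windows of the same length, 33.8% hold it. The GC box is in 4 of the 5, all but Pcdh8, and in 32.7% of all windows. Pcdh8 alone holds TATAAA, 30 bases before its start, which 12.4% of all windows hold. The windows have between 11 and 23 CG dinucleotides, against a median of 6 over all windows. A match describes these letters only.

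Pcdh8 (ENSMUSG00000036422; mm9 chr14:80166587-80171119, minus strand) had higher cocaine values at 28 days in both the NAc and the VTA. In the NAc the saline libraries had a lowest, median and highest level of 4.03, 4.65 and 8.16 RPKM, and the cocaine libraries 5.21, 9.57 and 11.0. The groups overlapped, with 5 of the 6 cocaine libraries above every saline library. The log2 fold change was 0.67 (SE 0.21, edgeR adjusted p = 0.59), and a two-sided exact permutation test over the 924 divisions of the libraries gave p = 0.017. In the VTA the 5 saline libraries had 8.05, 10.1, 8.92, 7.06 and 4.37 RPKM and the cocaine libraries a lowest, median and highest level of 9.04, 11.1 and 12.8. Here 4 of 6 cocaine libraries exceeded all saline libraries, and the log2 fold change was 0.50 (SE 0.18, edgeR adjusted p = 0.40; exact permutation p = 0.013). At 1 day the values went the other way, with -0.13 (SE 0.19) in the NAc and -0.12 (SE 0.18) in the VTA.

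Pcdh8 levels in saline libraries are given for both sampling times as a description, with no test. The saline means at 1 and 28 days were 4.12 ± 0.74 and 7.70 ± 2.2 RPKM in the VTA, 3.55 ± 0.53 and 8.37 ± 1.5 in the PFC, and 4.00 ± 0.70 and 5.61 ± 1.9 in the NAc. The libraries of the 2 times overlapped in the NAc and VTA but not in the PFC. Time, age at sampling and deposited table coincide, so these cannot be told apart.

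Pcdh17 (ENSMUSG00000035566; mm9 chr14:84843370-84936867, plus strand) had the smallest p in 2 comparisons. In the VTA at 28 days the 5 saline libraries had 9.20, 13.9, 14.7, 10.7 and 9.79 RPKM, and the cocaine libraries ran from 12.6 through a median of 16.2 to 20.6. Of the 6 cocaine libraries 5 lay above every saline library. The log2 fold change was 0.50 (SE 0.15, edgeR adjusted p = 0.39; exact permutation p = 0.017). In the NAc at 1 day it was 0.20 (SE 0.06, edgeR adjusted p = 0.99; exact permutation p = 0.0087), with saline libraries averaging 13.0 ± 1.14 RPKM and cocaine libraries 14.8 ± 0.554 (n = 6 each), and 3 cocaine libraries exceeded all saline libraries.

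Pcdh10 had opposite signs in 2 comparisons. Its VTA saline libraries at 1 day ran from 19.7 through 23.3 to 26.5 RPKM and the cocaine libraries from 14.3 through 19.6 to 23.4, a log2 fold change of -0.31 (SE 0.11, limma adjusted p = 0.22; exact permutation p = 0.028). In the NAc at 28 days, saline libraries lay between 26.0 and 29.8 RPKM and cocaine libraries between 27.9 and 39.1, with 0.19 (SE 0.07, edgeR adjusted p = 0.69; exact permutation p = 0.037). Both pairs of groups overlapped.

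Pcdh18 and Pcdh11x were lower with cocaine in the VTA at 1 day, at -0.30 (SE 0.11, limma adjusted p = 0.24; exact permutation p = 0.024) and -0.39 (SE 0.15, limma adjusted p = 0.25; exact permutation p = 0.026). The Pcdh18 saline libraries ran from 4.01 to 5.25 RPKM and the cocaine libraries from 2.80 to 4.61, with 4 cocaine libraries under every saline library. The lowest cocaine value of Pcdh10, Pcdh18 and Pcdh11x came from the same library, the sixth, which also had the lowest Pcdh17 level of its group, 7.00 RPKM against 12.6 to 14.5 in the others. Without it, Pcdh10 was at -0.23, Pcdh18 at -0.22 and Pcdh11x at -0.29, with limma adjusted p = 0.24, 0.29 and 0.30.

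Some markers of other cells had an unadjusted p under 0.05 for cocaine in these VTA libraries, and 0 passed the adjusted threshold. At 1 day, 5 of 7 tested dopamine neuron markers and 7 of 8 microglial markers were lower with cocaine at an unadjusted p under 0.05, and 6 of 8 meningeal and perivascular fibroblast markers were higher. Of 6 oligodendrocyte precursor markers 3 were lower, and of 8 endothelial markers 2 were higher. Of 5 tested cortical excitatory markers 3 were higher and 1 lower. Of all genes, 4.57% were lower and 11.2% higher at an unadjusted p under 0.05. The summed dopamine neuron level ran from 1086 to 2480 RPKM in saline and from 653 to 1542 in cocaine libraries, and the summed fibroblast level from 32.9 to 134 and from 73.4 to 584, the highest value being that of the sixth cocaine library. No marker on these lists was at 0 in every library of either group. The part of these markers in the protocadherin values was not tested.

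In the VTA at 28 days, all 12 tested non-clustered genes and all 22 beta genes had a log2 fold change above 0. The median over the 37 tested members was 0.18, beside -0.03 over all 16937 genes tested, and over the non-clustered genes it was 0.32. The members share libraries, so their common sign is 1 observation on 11 libraries and not 37. Of the members, 7 had an unadjusted p under 0.05, all higher with cocaine, where 5.08% of all genes were higher at that threshold. Besides Pcdh8 and Pcdh17 these were Pcdh1, Pcdh7, Pcdh19, Pcdhb8 and Pcdhb1.

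Pcdh1 had saline values of 21.6, 21.3, 20.1, 17.1 and 15.2 RPKM and cocaine values from 20.9 to 24.3, with 5 of 6 above every saline library (0.27, SE 0.09, edgeR adjusted p = 0.39; exact permutation p = 0.011). Pcdh7 had saline values of 3.95, 9.26, 7.36, 8.12 and 9.22 RPKM and cocaine values from 8.32 to 11.1 (0.42, SE 0.18, edgeR adjusted p = 0.42; exact permutation p = 0.013). Pcdh19 ran from 3.34 to 6.04 RPKM in saline and from 5.30 to 7.82 in cocaine libraries (0.37, SE 0.14, edgeR adjusted p = 0.41; exact permutation p = 0.030). In all 3 the groups overlapped. Pcdhb1, with 2 to 23 reads per library, had 0.91 (SE 0.40; exact permutation p = 0.048), and Pcdhb8 had 0.41 (SE 0.17; exact permutation p = 0.022).

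The number of members with an unadjusted p under 0.05 in this comparison depended on single libraries. It ran from 3, without the second cocaine library, to 12, without the second saline library. It was 7 without the fourth saline library, which had the lowest summed dopamine neuron level of its group (637 RPKM) and the highest fibroblast level (442 RPKM). It was 4 without the fifth or the sixth cocaine library. Among markers, 3 of 8 oligodendrocyte, 3 of 8 endothelial, 2 of 8 microglial and 3 of 7 cortical excitatory neuron genes were lower with cocaine at an unadjusted p under 0.05, and 1 of the cortical genes was higher. Of all genes, 6.39% were lower and 5.08% higher at that threshold, and 0 markers passed the adjusted threshold. Of 8 astrocyte markers 1 was higher and 1 lower. Of medium spiny neuron markers 2 of 8 were higher and 1 lower, of choroid plexus and ependymal markers 2 of 7 were higher and 1 lower, and of 8 dopamine neuron markers 0 were in either direction. The summed oligodendrocyte level ran from 3720 to 7449 RPKM in saline and from 2599 to 4727 in cocaine libraries, and no oligodendrocyte marker was at 0 in either group. Their part in the protocadherin values was not tested.

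**Figure D4:**
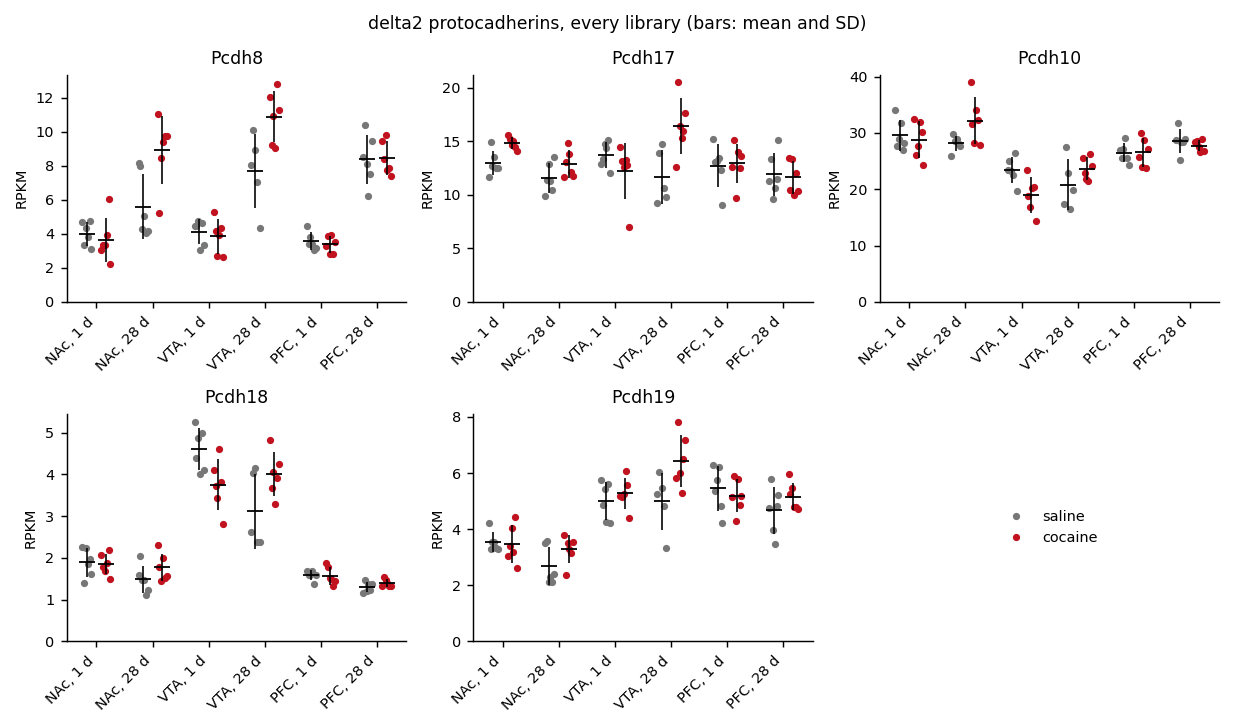
RPKM (y axis, from 0) of the 5 delta2 genes in every library of the 6 comparisons (x axis), saline in grey and cocaine in red, with black marks for the mean and bars for the SD. Cocaine and saline libraries overlap in every pair of groups. The means of Pcdh8 in the VTA at 28 days are 7.70 and 10.9 RPKM, and those of Pcdh17 in the same groups are 11.7 and 16.4 RPKM.

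Whether the cocaine effect differed between 1 and 28 days was tested as an interaction of treatment and time. In the VTA 0 of 37 members passed the adjusted threshold by edgeR or by DESeq2, and 10 had an unadjusted p under 0.05, all with a higher effect at 28 days, where 5.33% of all genes were in that direction and 10.3% in the other. With a library left out that number ran from 7 to 16, the highest without the second VTA saline library at 28 days. The 4 with the smallest p were Pcdh18 (0.70, SE 0.20), Pcdh17 (0.71, SE 0.21), Pcdh11x (0.66, SE 0.20) and Pcdh10 (0.53, SE 0.17), each with an edgeR adjusted p between 0.16 and 0.17. The sixth VTA cocaine library at 1 day had the lowest level of its group for all 4. Without it, 7 members had an unadjusted p under 0.05, and the smallest edgeR adjusted p was 0.27. The count was also 7 without the first VTA saline library at 1 day, and without the second or the fifth VTA cocaine library at 28 days. With all libraries, all 12 non-clustered genes and 16 of 22 beta genes had values above 0. In the NAc and PFC 0 of 37 and 0 of 36 members passed, and 5 and 4 had an unadjusted p under 0.05, beside 5.27% and 4.85% of all genes. Of all genes, 0.0181% and 0.00604% passed the adjusted threshold there, all of them with a lower effect at 28 days, and 0.0% did in the VTA.

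Pcdh12 had the largest value in the NAc interaction, 1.52 (SE 0.40, edgeR adjusted p = 0.64). At 1 day its NAc libraries held 6 to 12 reads with saline and 2 to 4 with cocaine, too few to pass the filter of the comparison within that table. The corresponding levels were 0.0419 to 0.0801 and 0.0136 to 0.0351 RPKM, which did not overlap, and at 28 days the groups had like means, 0.0806 and 0.0859 RPKM. Without that filter, cocaine against saline at 1 day gave -1.40 (edgeR adjusted p = 0.51). How often other genes with so few reads do not overlap was not counted. In the PFC interaction Pcdh12 had 1.35 (edgeR adjusted p = 0.99).

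For the gamma row the log2 fold change lay between -0.10 and 0.04 over the 6 comparisons, with standard errors from 0.04 to 0.06, and the smallest edgeR or limma adjusted p was 0.75. The alpha row Pcdha1 was at -0.06 (SE 0.09) in the NAc at 1 day. Pcdha3, whose reads are uncertain, had its smallest p in the NAc at 28 days, at 0.31 (SE 0.15; exact permutation p = 0.061).

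Of the beta genes, 1 of 22 had an unadjusted p under 0.05 in the NAc at 1 day and 1 of 22 at 28 days (all genes 4.01% and 6.76%). In the VTA 2 of 21 and 2 of 22 did (all genes 15.7% and 11.5%), and in the PFC 1 of 21 and 2 of 21 (all genes 3.78% and 5.66%). In the NAc, Pcdhb2 had -0.34 (SE 0.15; exact permutation p = 0.024) at 1 day and Pcdhb3 0.21 (SE 0.09; exact permutation p = 0.024) at 28 days. In the VTA at 1 day, Pcdhb22 had 0.25 (SE 0.10) and Pcdhb20, annotated as a pseudogene, 0.20 (SE 0.09), each with an exact permutation p of 0.017. The number of members higher there at an unadjusted p under 0.05 fell from 2 to 0 with edgeR on recovered reads and without the second cocaine or the first saline library, and to 1 without the first or the fifth cocaine library or the third or the sixth saline library. In the PFC, Pcdhb15 had -0.30 (SE 0.12; exact permutation p = 0.017) at 1 day, and Pcdhb13 had -0.33 (SE 0.10; exact permutation p = 0.013) and Pcdhb8 -0.49 (SE 0.23; exact permutation p = 0.10) at 28 days. Pcdhb8 thus had values of opposite sign in VTA and PFC at 28 days, and the difference between regions was not tested.

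The PFC values at 28 days include the saline library with the high medium spiny neuron markers. With it, 7 of 8 of those markers were lower in cocaine libraries at an unadjusted p under 0.05, where 2.97% of all genes were lower. That library had the highest Pcdhb13 level of its group, 2.14 RPKM, against 1.58 to 2.02 in the other saline libraries and 1.21 to 1.69 with cocaine. Without it Pcdhb13 was at -0.28 and Pcdhb8 at -0.43, of which Pcdhb8 no longer had an unadjusted p under 0.05. Pcdh15 had 0.36 (SE 0.12, edgeR adjusted p = 0.84; exact permutation p = 0.019) with all libraries and 0.29 without that one.

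Genes that act on or with the protocadherins were also compared. Of the 25 genes for promoter choice and chromatin, 0 passed the adjusted threshold in any cocaine comparison. At an unadjusted p under 0.05, 9 of 24 tested were higher and 0 lower in the VTA at 1 day, where 11.2% of all genes were higher, with Setdb1, a histone methyltransferase, at 0.22 (SE 0.06, limma adjusted p = 0.12) and Stag1, a cohesin subunit, at 0.20 (SE 0.06, limma adjusted p = 0.17). The counts in the other 5 comparisons were between 0 and 2. Of the 30 partners and processing enzymes, 0 passed the adjusted threshold. At 28 days and an unadjusted p under 0.05, 2 were higher and 1 lower in the NAc (all genes 3.34% and 3.42%). In the VTA 2 were higher and 2 lower at that time (all genes 5.08% and 6.39%). The median log2 fold changes of the list were -0.016 and 0.004. Cdh2, the N-cadherin gene, had 0.32 (SE 0.07, edgeR adjusted p = 0.59) in the NAc and 0.29 (SE 0.08, edgeR adjusted p = 0.39) in the VTA at 28 days.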

How the data were processed

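RNA-seq tables of 71 libraries were used. Per the labels and the study's methods, reads were aligned to mm9 with STAR 2.4.1d and Ensembl annotation; the counting tool and strand setting are not given in the sources used here. The authors deposited raw counts per gene for 4 tables and RPKM for 2 (VTA and PFC at 1 day); their fold changes and p-values were not used, nor were 30 columns of libraries outside this study. Whole reads were recovered from the deposited RPKM for 100.0% of genes with reads (tolerance 0.001), for the tests between regions and of interactions and as an alternative within the 2 tables.

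Counts were tested with edgeR 4.0.16 (TMM, filterByExpr with a minimum count of 10) and RPKM with limma 3.58.1 (log2(RPKM + 0.1), mean of at least 0.5 RPKM); DESeq2 1.42.0 was an alternative. RPKM of count tables used each gene's longest annotated transcript. Members and lists were chosen with earlier results of these data known. Named were all non-clustered genes, the member of each class with the smallest p in each cocaine comparison, the 2 largest region differences per class, and class extremes; members with an unadjusted p under 0.05 were added after their values were seen. All 132 list genes were found in the tables, 3 of them by older symbols. The read recovery and the fits were tested on simulated data. At 1 day the labels number the libraries, but those of 1 number did not consistently deviate together. Correlations ran from -0.534 to 0.662 between cocaine and saline libraries within regions. Between saline libraries of different regions they ran from -0.463 to 0.291. The numbers were therefore not taken as pairs, and libraries of different regions that may share a mouse were tested as independent.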

Additional observations from a re-analysis of the deposited data

Results flagged for a closer look

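For the 15 rows outside the beta cluster and the summed beta genes, a library was looked for that lay far from the others of its group, by Dixon's gap ratio at its 95% critical value. Of 192 groups examined, 20 held one, and chance gives about 1 in 20 groups. All levels are RPKM scaled within a table.

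The fourth PFC saline library at 28 days, which also carried medium spiny neuron markers, had 149.0 RPKM for Pcdhga11 against 128.0 to 135.0 in the others, and 28.8 for Pcdha1 against 32.9 to 34.7. The sixth VTA cocaine library at 1 day, with the highest fibroblast marker level of its group, had 7.0 RPKM for Pcdh17 against 12.6 to 14.5, 23.4 for Pcdh9 against 34.7 to 39.3 and 3.06 for Pcdh15 against 4.41 to 4.99.

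The remaining libraries were spread over the groups. In the PFC at 28 days, the second saline library had 1.68 RPKM for Pcdha3 (others 1.1 to 1.31) and 65.9 for Pcdh1 (49.2 to 55.2), the first cocaine library had 3.76 for Pcdh20 (2.39 to 2.82), and the third had 1.29 for Pcdh11x (1.73 to 1.99). In the PFC at 1 day, the third saline library had 40.6 for Pcdh9 (28.0 to 32.7), the fifth had 1.37 for Pcdh18 (1.59 to 1.69) and the sixth had 0.647 for Pcdha3 (0.918 to 0.989), while the first cocaine library had a summed beta level of 32.5 (37.4 to 40.0). In the VTA, the fifth saline library at 1 day had 5.73 for Pcdh15 (4.15 to 4.62), the first cocaine library at 1 day had 16.7 for Pcdh1 (12.3 to 13.8), the first saline library at 28 days had 18.8 for Pcdh9 (27.0 to 29.9), and the fifth cocaine library at 28 days had 0.0233 for Pcdh12 (0.107 to 0.143). In the NAc, the first saline library at 1 day had 4.21 for Pcdh19 (3.29 to 3.55), the fourth had 20.2 for Pcdh1 (28.6 to 31.4), and the second saline library at 28 days had 2.25 for Pcdh15 (1.22 to 1.6).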

How the results depend on the processing

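No alternative to the main design gave a protocadherin gene an adjusted p under 0.05 for cocaine against saline or for the interaction, leaving out each library in turn included (0 to 0 genes). At an adjusted p under 0.25, 3.0 genes passed in the VTA at 1 day, where 8.7% of all genes did. Between regions, leaving out a library gave 22 to 25 (NAc against VTA), 17 to 23 (NAc against PFC) and 13 to 18 (VTA against PFC) genes called at 28 days, and 24 to 27, 22 to 24 and 20 to 22 at 1 day. When calls also had to differ by 1 or more on the log2 scale, the counts were 5.0, 2.0 and 3.0 at 28 days (all genes 3906, 1843 and 3486) and 8.0, 2.0 and 3.0 at 1 day (3180, 1609 and 3077). The cocaine libraries gave 27.0 between VTA and PFC at 28 days, in place of 16 (all genes 10999, in place of 9939), and DESeq2 gave 24, 21 and 18 at 28 days and 27, 23 and 22 at 1 day. The log2 fold change of Pcdhga11 in the VTA at 1 day, 0.02, was -0.0232 with edgeR on recovered reads and between -0.000178 and 0.0589 with a library left out. Pcdhb6 between VTA and PFC at 28 days lost its call without the second VTA saline library (0.418, adjusted p = 0.102) and without any of 5 PFC saline libraries (0.482 to 0.538). Alternatives chosen after seeing the data left out the 3 libraries named in the report.

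With the replicate number as a block at 1 day, 0 genes were called with cocaine (smallest adjusted p 0.095 in the VTA, where 3 were lower and 0, in place of 2, higher at an unadjusted p under 0.05), and 26, 22 and 21 between regions; 2 of 6 pairs in the NAc, 2 in the VTA and 0 in the PFC correlated best with their own number. No paired analysis was possible because the columns carry no replicate numbers at 28 days, for those comparisons and the interactions.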
